A study of Arabidopsis thaliana with 4 samples.

Results

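ATG8B, ATG8C, ATG8G and ATG8H are 4 of the 9 ATG8 genes of Arabidopsis thaliana, and each was measured by 1 probe set among 22746 on the ATH1 array, where a group of short oligonucleotides reads out each transcript. They were taken as the probe sets whose only gene symbol in the platform's annotation is one of these names. They were chosen by their difference between ago4-1 and wild type in earlier results of these same arrays, where they stood higher in ago4-1. That difference is therefore described here with no test. The samples were 2 arrays of ago4-1, a mutant of AGO4, and 2 arrays of wild type, which the labels name La-er. AGO4 is an Argonaute, loaded with small interfering RNAs to guide methylation to matching DNA. The labels do not name the line in which ago4-1 is carried. In both genotypes total RNA came from whole plants 5 weeks old, grown in hydroponics with 16 h of light. The 2 arrays of each genotype are titled as biological replicates, and the labels do not say whether plants were pooled.

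ATG8 is a small ubiquitin-like protein at the centre of autophagy, the process by which a cell wraps part of its own cytoplasm in a double membrane and delivers it to the vacuole for breakdown. The protease ATG4 trims ATG8, the enzymes ATG7 and ATG3 join it to the lipid phosphatidylethanolamine, and the lipid-bound form sits on the growing membrane, where it also docks cargo receptors. Plants have a family of ATG8 genes where yeast has a single one, and in leaves autophagy is known for recycling protein and organelles during starvation and senescence. ATG8H and its nearest relative ATG8I form a branch of the family whose proteins end at the glycine that is joined to the lipid, so they need no trimming. ATG8B, ATG8C and ATG8G belong to the other branches, whose proteins carry extra residues after that glycine.

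Each array had a trimmed mean signal of 500.1, and the median signal was 151 and 164 on the ago4-1 arrays and 162.1 and 165.1 on the wild-type arrays. For the GAPDH control, signal near the 3' end over that near the 5' end, a ratio that goes up as RNA degrades, was 1.415 and 1.745 in ago4-1 and 1.559 and 2.055 in wild type, so the genotypes overlapped. The actin control gave higher ratios on every array, 8.785 and 7.99 in ago4-1 and 8.253 and 11.27 in wild type, also with overlap. The leaf markers RCA and LHCB4.1, which serve carbon fixation and light harvesting, gave signals from 28690 to 31770 on all 4 arrays. The level of AGO4 was not analysed here.

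ATG8H (AT3G06420), of the branch that needs no trimming, showed the largest difference of the 4 genes. Its signal was 255.1 and 289.7 in ago4-1, against 157.4 and 139.3 in wild type. Both ago4-1 arrays lay above both wild-type arrays. The lower ago4-1 signal was 0.645 above the higher wild-type signal on the log2(signal + 16) scale. The mean signal was 272.4 ± 24.5 in ago4-1 and 148.4 ± 12.8 in wild type (SD, n = 2 each). The difference was 0.81 in log2(signal + 16), ago4-1 minus wild type, or 1.75-fold on that scale, and it ran from 0.645 to 0.977 over the 4 pairs of arrays. Of 15922 probe sets above the low-signal filter, 628 (3.94%) had a difference at least as high. These are whole-plant RNAs, in which fewer cells of a type and less RNA per cell cannot be told apart.

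ATG8G (AT3G60640) had a signal of 451.9 and 563 in ago4-1, against 277.2 and 377.6 in wild type. On the log2(signal + 16) scale the arrays of each genotype were farther apart for this gene than for the other 3. The gap between the genotypes was the smallest, at 0.25. The means were 507.4 ± 78.6 in ago4-1 and 327.4 ± 71 in wild type (SD, n = 2 each), a difference of 0.62 on the log2(signal + 16) scale that ran from 0.25 to 0.98 over the pairs. ATG8B (AT4G04620) had a nearly equal difference, 0.60, with another spread. Its signal was 715.5 and 704.6 in ago4-1, against 414.1 and 518.7 in wild type. The ago4-1 arrays were close together and the wild-type arrays apart, with means of 710 ± 7.70 in ago4-1 and 466.4 ± 74.0 in wild type (SD, n = 2 each). For ATG8G 6.595% and for ATG8B 6.915% of the tested probe sets had a difference at least as high.

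ATG8C (AT1G62040) showed the smallest difference of the 4 and the narrowest range over pairs of arrays. Its signal was 1091 and 1172 in ago4-1, against 850.6 and 840.5 in wild type. The means were 1132 ± 56.9 in ago4-1 and 845.5 ± 7.16 in wild type (SD, n = 2 each), a 1.33-fold difference on the log2(signal + 16) scale. The log2 difference was 0.41, from 0.35 to 0.47 over the pairs, and 11.9% of tested probe sets had one at least as high.

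**Figure D1:**
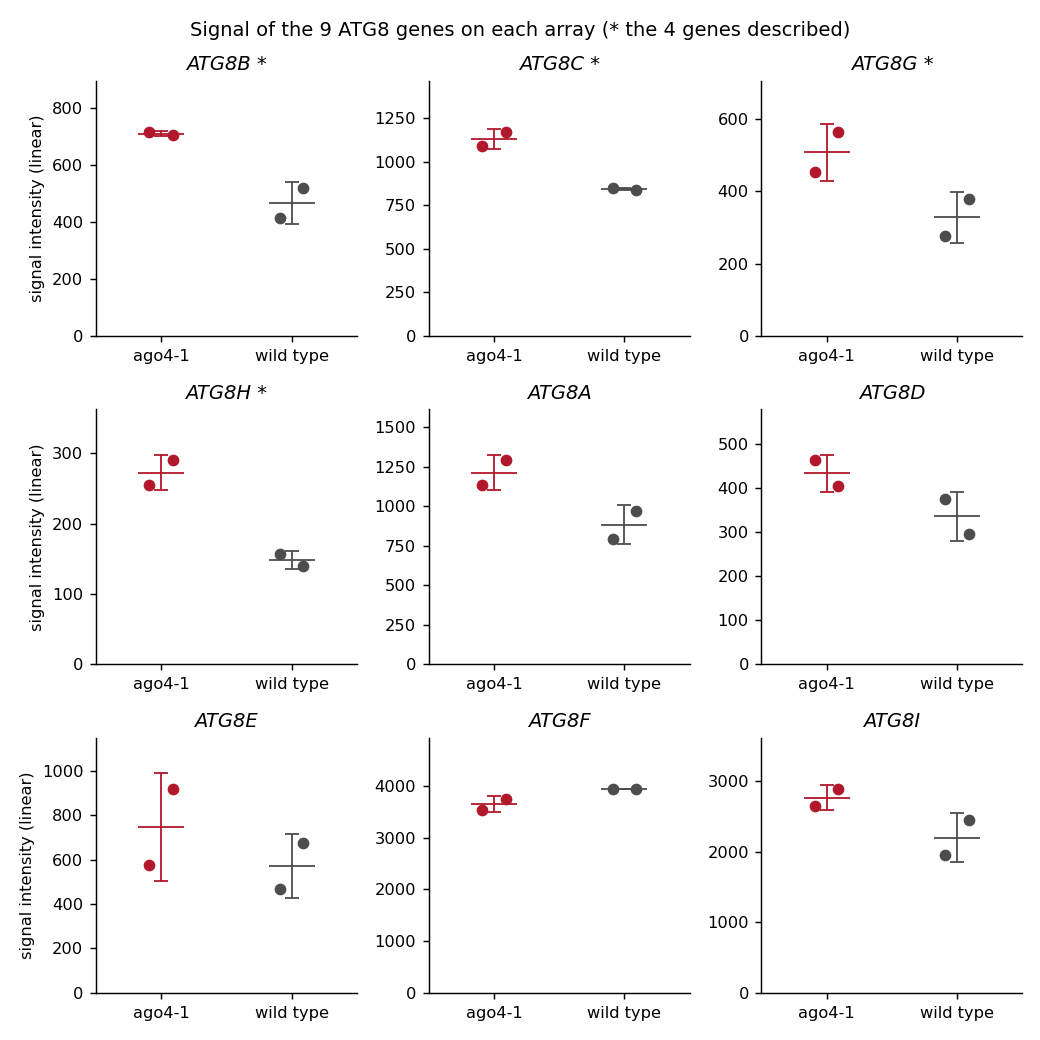
Signal intensity (linear scale, starting at 0) of the 9 ATG8 genes on each array, ago4-1 left and wild type right; points are arrays, bars the mean and SD of 2 arrays. In ATG8B, ATG8C, ATG8G and ATG8H both ago4-1 arrays lie above both wild-type arrays, the 2 genotypes overlap in ATG8E, and ATG8F lies lower in ago4-1.

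All 4 genes thus had both ago4-1 arrays above both wild-type arrays, as had 23.2% of the 15922 tested probe sets. Their median log2 difference was 0.61, beside -0.04 for all tested probe sets, and the 4 values spanned 0.40. Nothing is read from these values, since the difference chose the genes. All 9 ATG8 genes passed the low-signal filter, and the lowest signal of any of the 4 was 139.3, above the filter's 43.96, so none passed only through the higher genotype.

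The 5 other ATG8 genes give the values on the far side of the choice. Just inside it was ATG8C at 0.41. Just outside, by symbol rather than by size, was ATG8A, which the annotation lists as APG8A, at 0.45, and next by size were ATG8E and ATG8D at 0.36. The limma test, fitted over all 15922 tested probe sets with Benjamini-Hochberg adjustment, called 647 of them at an adjusted p under 0.05, which is 4.06%. The count was 280 without ago4-1 replicate 1 and 1046 without ago4-1 replicate 2. The test called 0 of these 5 genes, and 2 of them, ATG8A and ATG8I, had an unadjusted p under 0.05, as had 20.4% of tested probe sets.

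ATG8A (AT4G21980) had a signal of 1133 and 1290 in ago4-1, against 795.8 and 971.5 in wild type (log2 difference 0.45, SE 0.16, limma adjusted p = 0.169). ATG8I (AT3G15580), the close relative of ATG8H, is listed as APG8H and is not to be taken for it. Its signal was 2649 and 2892 in ago4-1 against 1959 and 2448 in wild type, a log2 difference of 0.34 (SE 0.15, limma adjusted p = 0.245). In both genes the genotypes did not overlap, as in the 4 genes above.

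ATG8D stood at 463.2 and 404.4 in ago4-1, against 375.8 and 297.1 in wild type, with no overlap and a log2 difference of 0.36 (limma adjusted p = 0.332). ATG8E, at 575.3 and 918.2 in ago4-1 against 468.8 and 674.1 in wild type, had the same log2 difference of 0.36 to 2 decimals, but its genotypes overlapped (limma adjusted p = 0.462). ATG8F was the family's exception in direction. Its signal was 3543 and 3757 in ago4-1, against 3943 and 3935 in wild type, a log2 difference of -0.11 (limma adjusted p = 0.641). Leaving out ago4-1 replicate 2 brought ATG8E to 0.03, and leaving out ago4-1 replicate 1 brought it to 0.69. ATG8D was lowest, at 0.20, when wild-type replicate 2 was dropped and highest, at 0.52, when wild-type replicate 1 was. For ATG8I those same wild-type arrays gave 0.495 and 0.18. With 1 array left out, ATG8A ran from 0.31 to 0.59 and ATG8F from -0.15 to -0.07. Each of the 5 kept its sign, which only ATG8E, with its overlap, could have lost.

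Of the 5 ATG8 genes that were not picked, 4 had a log2 difference above 0, beside 45.7% of the tested probe sets, and 3 had both ago4-1 arrays above both wild-type arrays, beside 23.2%. With the 4 picked genes, whose sign the choice fixed, these counts are 8 and 7 of 9. The median over the 9 genes was 0.41, and 0.36 over those 5. Whether the 4 genes differ from the other 5 was not tested, because the difference itself chose them. The 9 genes have similar coding sequences. The 4 genes' probe set identifiers end in the plain suffix for probes that the array's makers did not mark as shared with another gene, but how far probes of one ATG8 gene detect another was not tested.

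Across the 4 arrays the genes did not follow one another in detail. Set against each gene's own mean, ATG8G was higher on ago4-1 replicate 2 than on ago4-1 replicate 1 (0.46 and 0.15) and higher on wild-type replicate 2 than on wild-type replicate 1 (-0.095 and -0.52). ATG8H was also higher on ago4-1 replicate 2 (0.49) than on ago4-1 replicate 1 (0.32), but on the wild-type arrays the order was the other way (-0.485 on replicate 2, -0.33 on replicate 1). ATG8B differed little between the ago4-1 arrays (0.31 and 0.29) and ATG8C little between the wild-type arrays (-0.198 and -0.215).

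**Figure D2:**
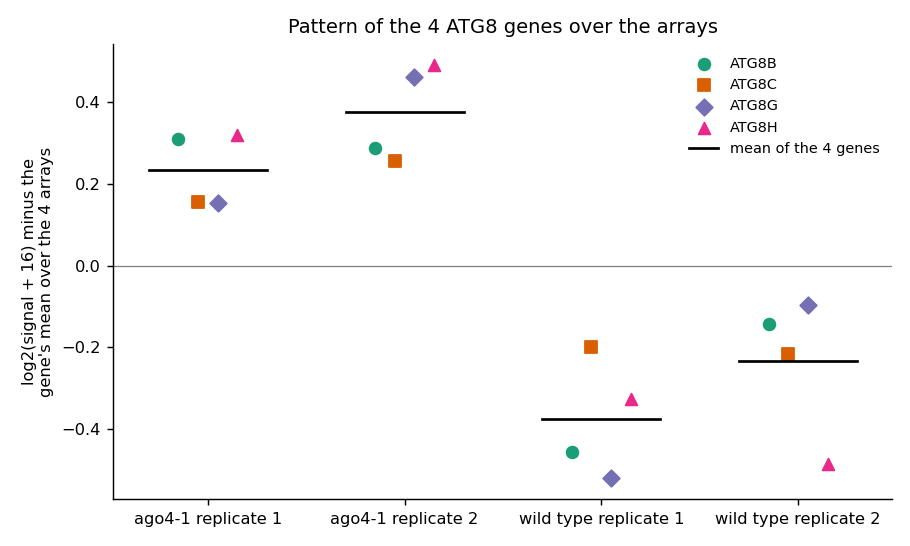
Log2(signal + 16) of ATG8B, ATG8C, ATG8G and ATG8H on each array minus the gene's mean over the 4 arrays, with a bar for the mean of the 4 genes. All points of ago4-1 lie above 0 and all points of wild type below it, and the genes change order between arrays of a genotype.

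The mean pattern of the 4 genes was 0.235 and 0.375 on the ago4-1 arrays and -0.375 and -0.234 on the wild-type arrays. The genes lay within a root mean square distance of 0.147 of it over the 4 arrays, ATG8B nearest at 0.084 and ATG8H farthest. Each of the 4 genes is part of that mean, which draws its own distance down, and all were chosen for their genotype difference. Of the other tested probe sets, which are not part of it, 564 (3.54%) lay at least as near. ATG8A lay at 0.095, inside the range of the 4 genes, and ATG8I at 0.151, just outside. ATG8D, ATG8E and ATG8F lay at 0.237, 0.257 and 0.364.

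The 5 named genes with the nearest pattern were AT3G03870, ATMDAR2, AT4G32950, bZIP58 and AT4G30450, at distances from 0.0249 to 0.0335. ATMDAR2 encodes a monodehydroascorbate reductase, an enzyme that regenerates ascorbate. Its signal was 1020 and 1123 in ago4-1, against 646.9 and 700.7 in wild type. bZIP58, of the bZIP family of transcription factors, had a signal of 141.4 and 151.4 in ago4-1 against 85.11 and 100.5 in wild type. The distance was taken over 4 arrays only.

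The other measured genes of the autophagy machinery stood near or below 0. Of 42 genes listed for it beside ATG8, 12 had a named probe set, and all 12 passed the low-signal filter. Measured here means having such a probe set. Probe sets without a single symbol in the annotation were not read, so the other genes may still be on the array. The limma test called 0 of the 12, against 4.06% of all tested probe sets, and 0 had an unadjusted p under 0.05, against 20.4%. Their median log2 difference was -0.15, with 1 above 0, against 45.7% of all tested probe sets, and 11 below. Quantile normalization left 10 below 0 and arrays centred on their medians 8, ATG3 then standing at 0.005. Without ago4-1 replicate 1 the median was -0.07, with 7 below 0. All of the 12 but ATG3 and ATG101 are annotated in the tables by locus tag alone, and their place on the lists comes from general knowledge of the pathway.

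In the list for the conjugation of ATG8 and ATG12, 3 of 9 genes were measured, and the genotypes overlapped in all 3. ATG3, the enzyme that passes ATG8 to its lipid, had a signal of 610.3 and 758.4 in ago4-1, against 746.2 and 661.7 in wild type (log2 difference -0.05, limma adjusted p = 0.914). The others on this list were AT3G59950 at 0.14 and AT5G50230 at -0.06.

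In the list for the ATG1 kinase complex, which starts autophagosome formation, 6 of 8 genes were measured. All 6 log2 differences were below 0, with a median of -0.22, where 45.7% of tested probe sets were above 0. In 4 of the 6 genes both ago4-1 arrays were below both wild-type arrays, as in 29.2% of tested probe sets. ATG101, a subunit of that complex, had a signal of 197.6 and 302.9 in ago4-1, against 317.1 and 315 in wild type (log2 difference -0.35, limma adjusted p = 0.428). The wild-type signals were close together and those of ago4-1 far apart. The lowest difference was that of AT2G37840, at -0.505, with a signal of 112.9 and 173.3 in ago4-1 against 185.6 and 227.7 in wild type (limma adjusted p = 0.311). AT3G53930 stood at -0.23, AT3G61960 at -0.21, AT1G49180 at -0.185 and AT3G18770 at -0.16. Without ago4-1 replicate 1 or without ago4-1 replicate 2, 5 of the 6 were below 0. The median was -0.20 without ago4-1 replicate 1 and -0.42 without ago4-1 replicate 2. The summed signal of the 6 genes was 828.6 on ago4-1 replicate 1 and 1210 on ago4-1 replicate 2, against 1207 and 1256 in wild type. ATG101 stood at -0.06 without ago4-1 replicate 1 and at -0.64 without ago4-1 replicate 2, and AT2G37840 at -0.23 and -0.78.

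Of the list for the phosphatidylinositol 3-kinase complex, 2 of 6 genes were measured, AT1G77890 at -0.03 and AT2G32760 at -0.003, the second being above 0 with either other normalization and the first with 1 of them. Of the receptors and adaptors 1 of 9 was measured, AT4G34660 at -0.15. The list of ATG9, ATG2 and the ATG18 genes, which bring membrane to the growing autophagosome, had 0 of 10 genes with a named probe set.

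**Figure D3:**
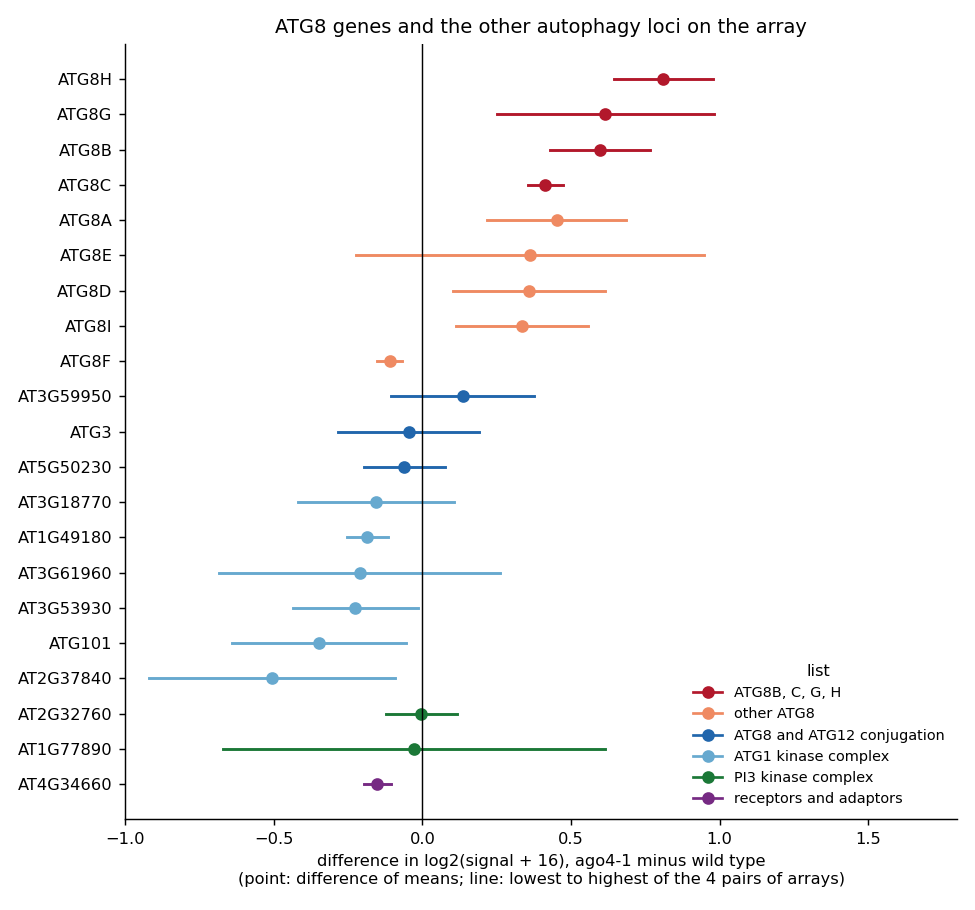
Difference in log2(signal + 16), ago4-1 minus wild type, for the 9 ATG8 genes and the 12 other measured autophagy genes, coloured by list; points are differences of means and lines run from the lowest to the highest of the 4 pairs of arrays. The ATG8 genes other than ATG8F lie right of 0, and the 6 genes of the ATG1 list lie left of 0.

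Genes that act before or after ATG8 were also read. Of 55 genes listed for TOR and SnRK1 control, starvation, senescence and vacuolar proteolysis, 16 had a named probe set and 15 were tested. The limma test called 1 of the 15, higher in ago4-1, beside 2.14% of tested probe sets called higher and 1.92% called lower.

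That gene was BETA-VPE, a vacuolar processing enzyme known from seeds, where it matures storage proteins. Its signal was 417.1 and 461.7 in ago4-1, against 136.5 and 133.8 in wild type, with no overlap. It rose 3.01-fold on the log2(signal + 16) scale (log2 difference 1.59, SE 0.19, limma adjusted p = 0.00379). GAMMA-VPE, its relative in vegetative tissue, overlapped between the genotypes, at 1831 and 2430 in ago4-1 and 1992 and 1836 in wild type (log2 difference 0.14, limma adjusted p = 0.675). ALPHA-VPE was under the low-signal filter, with signals of 12.7 and 15.54 in ago4-1 and 1.99 and 3.43 in wild type.

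The kinases TOR and SnRK1 restrain and promote autophagy. Of their list 4 of 14 genes were tested and 0 were called. RAPTOR1 and RAPTOR2, partners of TOR, stood at 0.05 and 0.04, and the SnRK1 subunits KINBETA1 and KINBETA2 at 0.30 and 0.045 (limma adjusted p from 0.49 to 0.967). With 1 array left out, RAPTOR1 ran from -0.06 to 0.16, RAPTOR2 from -0.365 to 0.439 and KINBETA1 from 0.03 to 0.57.

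Of 5 tested genes of the starvation list, which encode mitochondrial enzymes of amino acid breakdown and its electron transfer, 0 were called. Their median was -0.24 and 4 were below 0, where 45.7% of all tested probe sets were above 0. D2HGDH, a dehydrogenase of lysine breakdown, had a signal of 192.7 and 170.2 in ago4-1, against 283.7 and 278.6 in wild type (log2 difference -0.59, limma adjusted p = 0.133). MCCB, a subunit of the carboxylase of leucine breakdown, had 462.9 and 799.4 in ago4-1, against 929.1 and 921.3 in wild type (log2 difference -0.59, limma adjusted p = 0.206). It was called, at a limma adjusted p of 0.0217, without ago4-1 replicate 2. IVD, of the same pathway, stood at 0.42, and MCCA, the other subunit of that carboxylase, at -0.24.

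Of 4 tested senescence genes 0 were called. SWEET15, a sugar exporter of senescing leaves, had a signal of 306.3 and 415.3 in ago4-1, against 255.6 and 238.8 in wild type (log2 difference 0.50, limma adjusted p = 0.211). WRKY53, a transcription factor of early senescence, varied more within each genotype than between them, at 137.9 and 392.1 in ago4-1 and 93.11 and 305.8 in wild type. Its log2 difference ran from -0.36 to 1.20 with 1 array left out, and it was called without wild-type replicate 2 (limma adjusted p = 0.0364). WRKY6 and SAG101 stood at 0.11 and -0.09, both with overlap.

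Markers of other tissues were set beside these values. Of 8 genes on the pollen list 4 had a named probe set, and their summed signal was 842.4 to 864.9 in ago4-1 and 604 to 607.6 in wild type. AT5G45880, listed for pollen, rose 3.705-fold (limma adjusted p = 0.00359), TUA1 stood at -0.22, and ANX1 and ANX2 were near the bottom of the scale on every array, at 13.76 at most. Of 4 genes on the tapetum list 2 had a named probe set, with sums of 1760 to 2283 in ago4-1 and 1110 to 1265 in wild type. AT5G07230 rose 1.735-fold (limma adjusted p = 0.0402), a call lost without ago4-1 replicate 1 (0.115) and without wild-type replicate 1 (0.0918), and AMS stood at -0.36. The leaf sums were 58370 to 60970 in ago4-1 and 61870 to 62800 in wild type, over 2 of 6 genes. The root sums were 180.8 to 409.7 in ago4-1 and 219 to 395.6 in wild type, over 3 of 4, and most of each sum was BGLU23 (log2 difference 0.25, with overlap). EXPA18, an expansin listed for root, had a signal of 49.51 and 6.13 in ago4-1, against 98.12 and 76.9 in wild type (log2 difference -1.44, limma adjusted p = 0.186). Its difference was -0.65 without ago4-1 replicate 2. The part of tissue makeup in the ATG8 values was not tested.

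The 4 genes lie on chromosomes 1 (ATG8C), 3 (ATG8G and ATG8H) and 4 (ATG8B), and none is next to another. Of the 8 nearest tested genes, 1 on either side of each, 0 were called by limma, against 4.06% of all tested probe sets, and 1 had an unadjusted p under 0.05, against 20.4%. That gene was AT4G04460, beside ATG8B. Its signal was 851.7 and 857.9 in ago4-1, against 617.5 and 527.6 in wild type (log2 difference 0.57, limma adjusted p = 0.0888), and it lies 26 annotated loci away. The gene next to ATG8B on the other side, AT4G04630, stood at 0.33. The genes beside ATG8C, AT1G62030 and AT1G62045, stood at -0.33 and -0.24, those beside ATG8G, AT3G60590 and AT3G60660, at -0.23 and 0.19, and those beside ATG8H, AT3G06410 and AT3G06440, at -0.10 and -0.10.

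ATG8C lies in a stretch of chromosome 1, from AT1G55450 to AT1G67470, that was drawn up because calls gather there. Of its 301 other tested genes 39 were called, 29 higher and 10 lower in ago4-1, which is 13% beside 4.06% of all tested probe sets. The 39 calls became 11 with no variance trend and 15 when low signals were kept. Under these 2 settings the calls among all probe sets fell as well, from 647 to 93 and 140. The median log2 difference over the stretch was -0.02. BETA-VPE lies in the same stretch, 98 annotated loci from ATG8C. Within 50 loci of ATG8C 29 genes were tested and 3 were called, which is 10.3%, beside 13% over the stretch. All 3 were higher, where 2.14% of all tested probe sets were called higher. They were AT1G61730 at 1.22, AT1G61740 at 0.95 and AT1G62150 at 1.04, named after their values were seen.

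**Figure D4:**
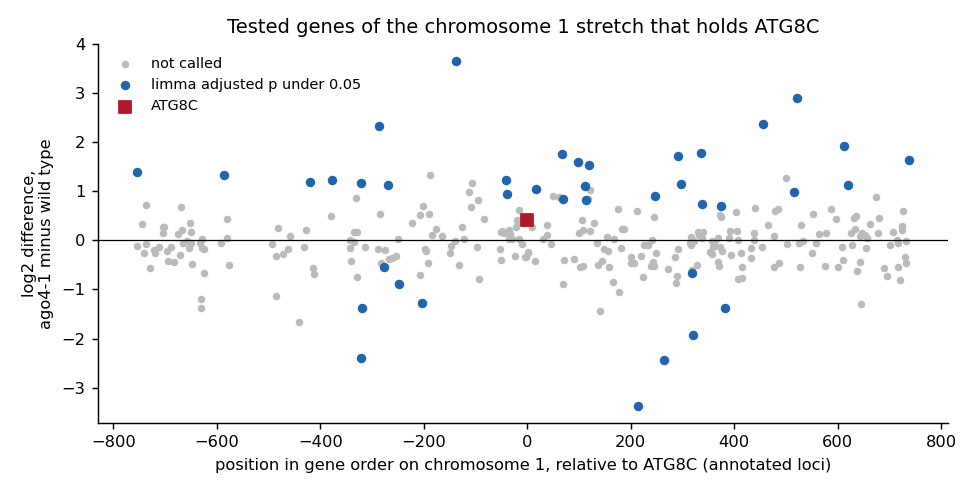
Log2 difference, ago4-1 minus wild type, of the tested genes of the chromosome 1 stretch by position in gene order relative to ATG8C; blue points were called by limma. ATG8C (square) lies at 0.41 among uncalled genes, with called genes scattered along the stretch on both sides of 0.

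Under other settings all 4 genes kept a difference above 0. As their genotypes did not overlap, leaving out an array or changing the pseudocount could not change that sign. Centring moves all probe sets of an array by the same shift. With array medians from 151 to 165.1 that shift was too small to change the sign, which leaves quantile normalization. Nothing is read from the kept sign, since the difference chose the genes. Across quantile normalization, centring and pseudocounts of 1 and 64 the log2 difference of ATG8H ran from 0.66 to 0.87, that of ATG8G from 0.55 to 0.67, that of ATG8B from 0.55 to 0.65 and that of ATG8C from 0.39 to 0.46. With 1 array left out ATG8G ran from 0.40 to 0.83 and ATG8B from 0.441 to 0.755, in both cases lowest without wild-type replicate 1 and highest without wild-type replicate 2. ATG8H ran from 0.72 to 0.90 and ATG8C from 0.36 to 0.46. The order of the 4 genes is not fixed by these data, since without wild-type replicate 2 both ATG8G and ATG8B stood above ATG8H.

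**Figure D5:**
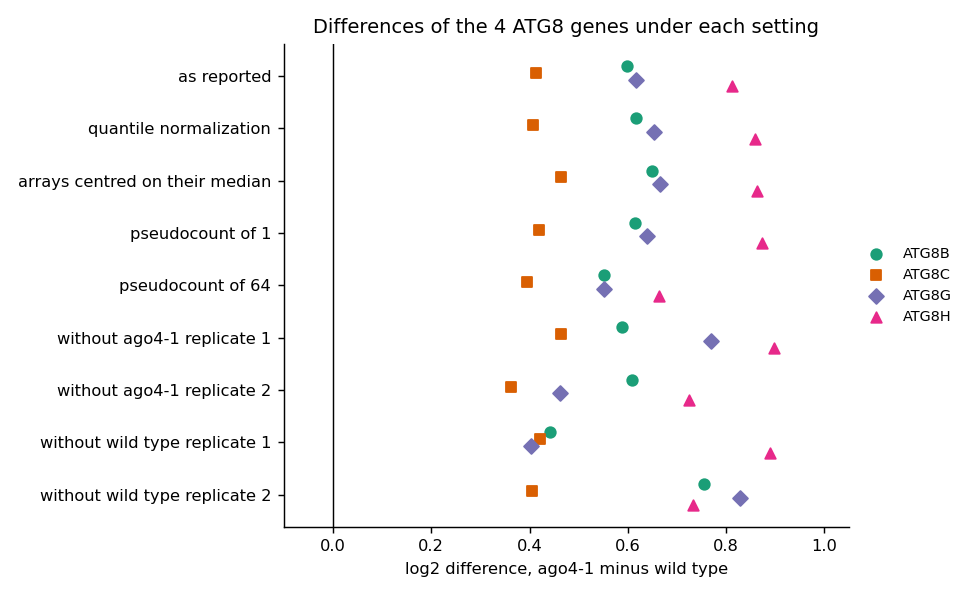
Log2 difference, ago4-1 minus wild type, of ATG8B, ATG8C, ATG8G and ATG8H as reported and under each other normalization, pseudocount and left-out array. All points lie above 0, from 0.36 for ATG8C to 0.90 for ATG8H.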

How the data were processed

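Per the submitters' processing notes the authors used GCOS, and the deposited intensity of each probe set is on a linear scale. Neither its version nor its settings are given in the sources used here. The arrays shared a trimmed mean, so no further normalization was applied. Of 22810 probe sets 64 were controls, which were dropped. The platform's annotation gave a single symbol to 13513, more than one to 503 and no entry to 8730, and 13436 were found by gene ID in RefSeq's TAIR10.1 gene table, used only for names and gene order.

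Values were transformed as log2(signal + 16), and probe sets under the 30th percentile of the mean over all 4 arrays were left out. The comparison used limma 3.58.1 under R 4.3.3 (eBayes with a variance trend, two-sided, Benjamini-Hochberg adjustment, threshold 0.05) and had 2 residual degrees of freedom. Precision is limited by the number of arrays. The procedure was tested on simulated data. No pair of arrays was identical (0 pairs).

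The ATG8 genes, the gene lists and the tests were chosen with earlier results of these data known. Of 128 listed genes 48 had a named probe set, the 9 ATG8 genes included, and the one with the highest mean was used. The genes named are the 4 ATG8 genes, all measured autophagy genes, up to 4 of each other list with the smallest p, the 5 nearest in pattern, and the nearest tested gene on either side; those near ATG8C were named after their values were seen. Alternatives were other normalizations, pseudocounts, filters and moderation, a block for the replicate number, and leaving out each array. Protein and promoter sequences were not analysed here.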

Additional observations from a re-analysis of the deposited data

How the results depend on the processing

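Each of the 4 ATG8 genes kept a log2 difference above 0 in all 8 settings that change its value. As their genotypes did not overlap, leaving out an array or changing the pseudocount could not change that sign. Nor can a pseudocount change the order of the arrays. Centring moves all probe sets of an array by the same shift, which was too small here to change either, and that leaves quantile normalization. Under both, all 4 kept both ago4-1 arrays above both wild-type arrays. Nothing is read from this, since the difference chose the genes. A shift larger than the spread between replicates was seen for ATG8H with a pseudocount of 64 (0.663), which by its construction shrinks differences of low signals. The median of the 4 genes also moved by more than that spread, from 0.607 to 0.431, without wild-type replicate 1. With 1 array left out this median ran from 0.431 to 0.744. The count of all called probe sets, 647, fell to 140 when no probe set was filtered and to 93 with no variance trend, and it ran from 280 to 1046 with 1 array left out. The 39 calls around ATG8C became 15 with no low-signal filter, 11 with no variance trend and 25 to 43 with 1 array left out. The calls among the control, starvation, senescence and vacuole genes ran from 1 to 2 with 1 array left out. The cause was not tested. The call of AT5G07230 was lost with no variance trend (limma adjusted p = 0.164) and without the filter (0.108). Where 1 array of a genotype was left, its spread is taken to be that of the other genotype.

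The replicate numbers come from titles that name no shared batch, and deviations from the group means of same-numbered arrays correlated at 0.166 across probe sets. With the replicate number as a block 2409 of the 15922 tested probe sets were called, where the main fit called 647. Among them were 87 of the 301 genes around ATG8C and 2 of the 15 control, starvation, senescence and vacuole genes. So was 1 other autophagy gene, ATG8A (limma adjusted p = 0.0439). The block uses up part of the 2 residual degrees of freedom. With so many probe sets called, no single call is read as a result. EXPA18 was also called (0.0235).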
